A study of Mus musculus with 7 samples.

Results

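To describe how inhibition of protein phosphatase 1 (PP1) relates to hippocampal miRNAs in the absence of training, the small RNA library of non-trained NIPP1* mice was compared with that of non-trained control littermates. These are 2 of the 7 libraries of the series, 1 on each side. Of the 706 miRNA names with a read in either library, the comparison covers the 322 that averaged 100 reads or more across the pair. They held 99.9% of the miRNA reads of each library.

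All mice were adult C57BL/6 animals aged 3 to 5 months, and each library was made from the pooled hippocampi of several mice, so that the spread between mice is not visible in it. The control library is labelled untrained wildtype and the other untrained NIPP1*. NIPP1* is the PP1-binding part of the nuclear inhibitor of PP1 fused to EGFP. It sits behind a tetO promoter that is driven by rtTA2 under the CaMKIIα promoter, so that doxycycline in the diet induces it in forebrain neurons and not in the glial, vascular and blood cells that share the tissue. Double transgenic males carry it, and whether their control littermates carried a single transgene or ate the same diet is not given in the sources used here. Non-trained mice were handled and habituated to the arena of the object recognition task (NOR) and met no objects in it. The other 5 libraries come from trained mice, 3 labelled trained wildtype (libraries 3, 4 and 5) and 2 labelled trained NIPP1* (libraries 6 and 7). They serve here to show how far libraries of 1 group can lie apart and over which range a level varied in the series, and no comparison of genotypes is drawn from them. The group means deposited by the authors assign these trained libraries to genotypes the other way round, but the 4 pairs of libraries within a group are the same under both assignments. The transgene gives no miRNA read, and the genotype could therefore not be checked in the data.

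PP1 is a serine/threonine phosphatase that restrains learning and memory, and its nuclear pool is held by regulatory subunits such as NIPP1. miRNAs are cut from hairpin precursors, first in the nucleus by the Drosha complex and then in the cytoplasm by Dicer, and 1 arm of the hairpin usually accumulates while the other is degraded. An asterisk in a name marks an arm that was named as the minor one, although some such arms, miR-132* among them, were the more abundant here. Bases 2 to 8 of the mature strand, the seed, pair with target mRNAs, so miRNAs that share a seed form a family.

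Levels are given as reads per 1000000 miRNA reads (RPM). Library 1, the non-trained control, held 8890770 miRNA reads and library 2, the non-trained NIPP1* library, 8072663; the trained libraries held between 7285099 and 10017730. 1 read was worth 0.112 RPM in library 1 and 0.124 RPM in library 2. Each ratio is the log2 of the NIPP1* level over the control level, with an exact 95% interval that covers counting error only. There is no replicate on either side, so no ratio has a test against the spread between mice or libraries. In such bulk tissue, fewer cells of a type and less RNA per cell cannot be told apart.

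The mature strands at the centre of the comparison are shown as RefSeq gives them, with the seed in capitals. The first group is the miR-183/96/182 cluster, which had the largest ratios, and its members differ from each other within the seed.
miR-183: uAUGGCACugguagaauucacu
miR-182: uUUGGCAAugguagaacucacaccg
miR-96: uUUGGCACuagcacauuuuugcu
The second group holds the strand with the highest ratio outside that cluster and 5 of those with the lowest ratios. miR-34a is the one past 1 log2 unit.
miR-146a: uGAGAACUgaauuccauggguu
miR-34a: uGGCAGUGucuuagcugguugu
miR-219-5p: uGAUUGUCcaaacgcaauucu
miR-135a: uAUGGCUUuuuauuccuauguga
miR-190: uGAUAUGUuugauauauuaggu
miR-7a: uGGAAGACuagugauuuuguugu
The third group is taken from the let-7 family, whose members share the seed and differ in base composition in the rest of the strand.
let-7b: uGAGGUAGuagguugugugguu
let-7c: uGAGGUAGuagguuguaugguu
let-7a: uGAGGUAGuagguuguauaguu
let-7g: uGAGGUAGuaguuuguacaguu
let-7f: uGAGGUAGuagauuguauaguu

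Both hippocampal miRNA profiles were close to each other. The log2 ratio was above 0 for 171 of the 322 miRNAs (53.1%) and below 0 for 151, with a median of 0.02 and quartiles of -0.15 and 0.16. It was under 0.5 in size for 303 miRNAs (94.1%). Of the 19 that reached 0.5, 7 were higher in the NIPP1* library and 12 lower. 3 miRNAs (0.932%) reached 1 log2 unit. 2 of these were higher (0.621%), namely miR-183 and miR-182, and 1 was lower (0.311%), namely miR-34a. The counting interval held 0 for 130 miRNAs, lay below 0 for 91 and lay above 0 for the others. The plot of ratios by level shows that the sizes depended little on abundance: the median size was 0.17 for the 146 miRNAs with a mean of 100 to under 1000 reads, 0.14 for the 113 up to 10000 reads and 0.15 for the 63 above that.

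**Figure D1:**
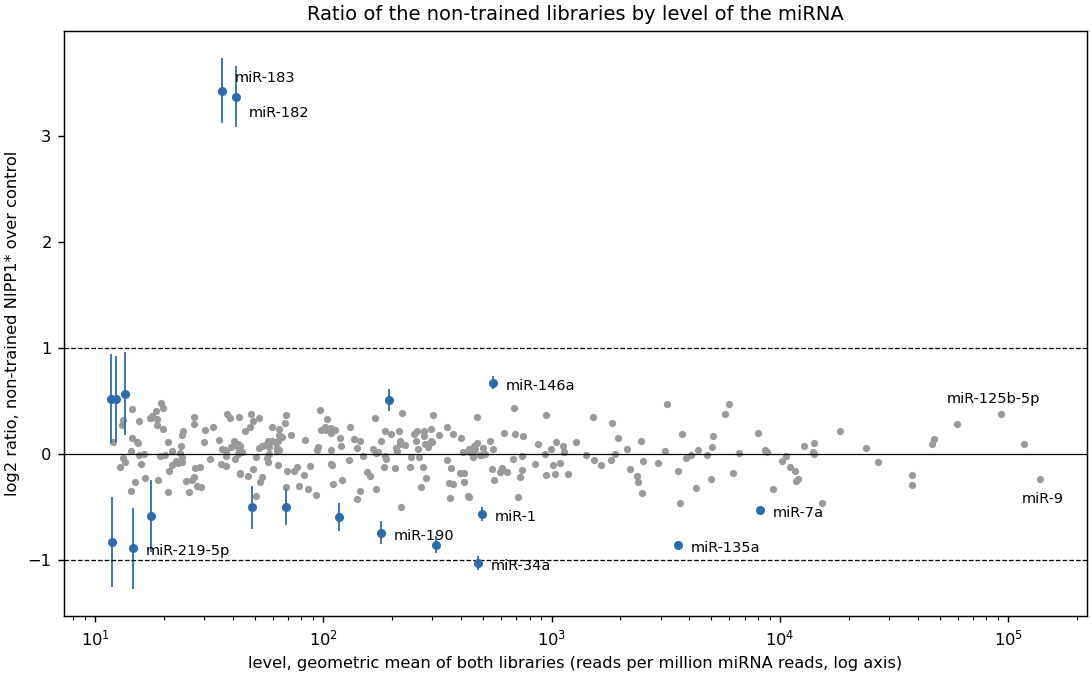
Each point is 1 of 322 miRNAs, with its level in RPM on a log axis and its log2 ratio, NIPP1* over control, in non-trained mice; blue points reached 0.5 in size and carry their 95% counting interval, and dashed lines mark 1 and -1. miR-183 and miR-182 stand alone at 3.42 and 3.36, and miR-34a lies just past -1.

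The same measures were taken between libraries of 1 trained group, where genotype and training are the same by the labels. Libraries 4 and 3 differed by at least 1 log2 unit for 16 of the 322 miRNAs, libraries 5 and 3 for 18, libraries 5 and 4 for 6 and libraries 7 and 6 for 10, against 3 between the non-trained libraries. The count at 0.5 was 68, 72, 23 and 19 in these pairs, against 19. The non-trained libraries were therefore closer to each other than library 3 was to libraries 4 and 5. The median size of their ratios, 0.152, was near the 0.145 between libraries 5 and 4 and the 0.141 between libraries 7 and 6. For each miRNA, the pair with the largest difference among the 5 was the non-trained pair in 54 cases (16.8%), 28 with a higher and 26 with a lower level in the NIPP1* library. It was libraries 4 and 3 in 94 cases, libraries 5 and 3 in 107, libraries 5 and 4 in 31 and libraries 7 and 6 in 36.

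**Figure D2:**
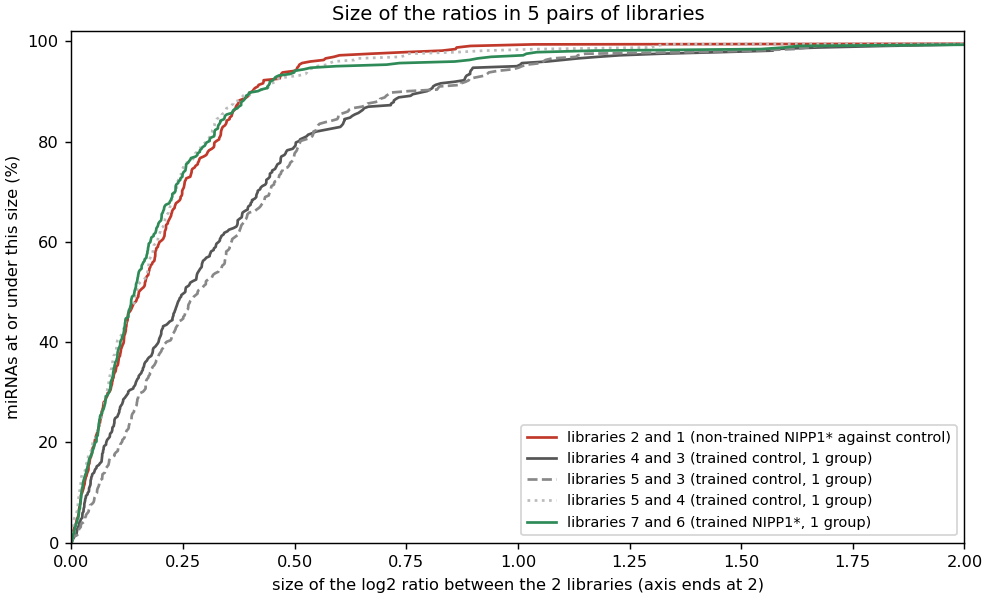
For 5 pairs of libraries, the curves give the percent of the 322 miRNAs whose log2 ratio is at or under the size on the x axis, which ends at 2. The non-trained pair (red) runs with the pair of trained NIPP1* libraries and with libraries 5 and 4, and both pairs with library 3 lie below them.

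Expression of the miR-183/96/182 cluster differed most. Its 3 hairpins lie within a few kb of each other on the minus strand of chromosome 6 (mm9), with miR-183 at chr6:30119711-30119732, miR-96 at chr6:30119506-30119528 and miR-182 at chr6:30115962-30115986, in no annotated gene other than the hairpins. miR-183 was read 98 times in the control and 952 times in the NIPP1* library, or at 11.0 and 118 RPM, a log2 ratio of 3.42 (3.12 to 3.73) and a 10.7-fold higher level. miR-182 was read 115 and 1075 times, at 12.9 and 133 RPM, with a log2 ratio of 3.36 (3.09 to 3.65). The NIPP1* library had the highest level of the 7 for both strands, and the control had the lowest for miR-183 and the lowest but one for miR-182.

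miR-96 did not reach the minimum of 100 reads. It had 11 reads in the control and 61 in the NIPP1* library, at 1.24 and 7.56 RPM, with a log2 ratio of 2.61 (1.67 to 3.69). The opposite arm of miR-183 had no read in the control and 11 in the NIPP1* library, at 1.36 RPM against a limit of 0.337 RPM that a count of 0 allows. It was the only name with at least 10 reads in 1 library and none in the other. The opposite arm of miR-182 had 0 and 1 read. The cluster as a whole summed to 25.2 RPM in the control and 260 RPM in the NIPP1* library.

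The cluster was also uneven between trained libraries of 1 group. miR-183 was at 24.9, 114 and 13.05 RPM in the 3 trained control libraries and at 79.6 and 12.98 RPM in the 2 trained NIPP1* libraries. miR-182 was at 33.4, 118 and 15.2 RPM in the former and at 81.9 and 11.2 RPM in the latter. miR-96 was high in the same libraries, with 2.44, 11.3 and 1.02 RPM and with 7.14 and 1.40 RPM. High and low libraries therefore occurred in both trained groups, and the largest log2 ratio within a group was 3.13 for miR-183 and 2.96 for miR-182, close to that of the non-trained pair. For miR-96 it was 3.46, above the 2.61 of the non-trained pair. miR-200c, an epithelial miRNA with 4 and 8 reads, was at 0.45 and 0.99 RPM in the non-trained control and NIPP1* libraries and at 0.49, 11.3, 1.66, 4.94 and 0.998 RPM in libraries 3 to 7. miR-200a and miR-200b, of the same family, had ratios of -0.60 and -0.51.

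Outside the cluster, the 10 next highest ratios lay between 0.43 and 0.67. miR-146a, which is induced by inflammatory signalling and dampens it, led them with 438 RPM in the control and 698 RPM in the NIPP1* library, a log2 ratio of 0.67 (0.61 to 0.73). The trained libraries had 484, 346, 404, 286 and 356 RPM, so the NIPP1* library was above the other 6. The same held for miR-434-3p, a strand from the imprinted Dlk1-Dio3 region that lies opposite an exon of Rtl1, with 5100 RPM in the control, 7062 RPM in the NIPP1* library and 5007 to 5754 RPM in the trained ones. It held as well for miR-99b, at 2721 and 3761 RPM with a trained range of 2885 to 3395 RPM. Both ratios were 0.47, while no pair within a group exceeded 0.17 for miR-434-3p and 0.07 for miR-99b. For miR-99b and miR-378*, the control was also below all trained libraries.

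The rest of this group consisted of scarce opposite arms and of miR-204. miR-299*, miR-1981*, miR-34c* and miR-378* were at 9.79 to 16.4 RPM in the control and at 14.0 to 22.8 RPM in the NIPP1* library, with ratios of 0.47 to 0.57 whose intervals reached down to 0.10 to 0.18. let-7d* was at 162 and 230 RPM, but between 160 and 351 RPM in the trained libraries. miR-204, which lies in an intron of Trpm3 and is abundant in choroid plexus, was at 591 and 796 RPM, inside a trained range of 400 to 1154 RPM. Its opposite arm had the same ratio of 0.43. In all, the NIPP1* library was above the 5 trained libraries for 7 of the 12 highest ratios, and the control was below them for 4. Over all 322 miRNAs these counts were 63 and 40, and the choice of the 12 by their ratio favours both positions.

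The 12 lowest ratios lay between -0.51 and -1.03. The control library was above all 5 trained libraries for 7 of them, and the NIPP1* library was below all 5 for 2. Over all 322 miRNAs, the control was above them for 79 and the NIPP1* library below them for 20. The same imbalance was therefore present among all miRNAs, and the 12 were picked by the ratio itself. miR-34a, a miRNA induced by p53, lies at chr4:149442582-149442603 on the plus strand, outside annotated genes. It was at 683 RPM in the control and 333 RPM in the NIPP1* library, a log2 ratio of -1.03 (-1.10 to -0.97). The trained libraries had 350, 354, 512, 386 and 435 RPM, so that the control was the highest and the NIPP1* library the lowest of the 7. With totals that leave out the 10 most abundant miRNAs, its ratio was -0.98 and no longer past 1. miR-34c and miR-34b-5p, which have the same seed, had ratios of -0.20 and -0.23.

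miR-135a and miR-135b, which share a seed and lie on 3 chromosomes, miR-135b in an intron of Lemd1, had almost the same ratio. miR-135a was at 4840 and 2661 RPM, a log2 ratio of -0.86 (-0.89 to -0.84), and miR-135b at 419 and 231 RPM, a log2 ratio of -0.86 (-0.94 to -0.78). In the trained libraries, miR-135a was at 2797, 1937, 2575, 2029 and 1994 RPM and miR-135b at 253, 145, 276, 214 and 202 RPM. The non-trained NIPP1* library was within these ranges, and the non-trained control alone was above them. Libraries 5 and 4 differed by up to 0.93 for miR-135b, so this strand did not pass the spread within a group, whereas miR-135a did, with at most 0.53.

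miR-219-5p, which promotes oligodendrocyte differentiation, was at 20.0 and 10.8 RPM, a log2 ratio of -0.89 (-1.28 to -0.52), from 178 and 87 reads. Libraries 3 to 7 had 9.02, 9.46, 11.5, 26.6 and 18.97 RPM, so that both levels were inside the trained range. The much more abundant miR-219-3p had a ratio of -0.25. miR-592, within an exon of Grm8, a glutamate receptor gene, was at 15.9 and 8.92 RPM, with 6.01 to 14.8 RPM in the trained libraries. miR-190, from an intron of Tln2, was at 231 and 138 RPM (-0.75, -0.85 to -0.64), and its control level was above the trained range of 118 to 206 RPM.

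The remaining low ratios were smaller. miR-200a and miR-200b, from 1 epithelial cluster on chromosome 4, were at 144 and 95.3 RPM and at 81.4 and 57.4 RPM. Both levels were inside wide trained ranges of 68.0 to 225 and 36.04 to 111 RPM. miR-1, the main miRNA of skeletal and heart muscle, was at 604 and 407 RPM (-0.57, -0.63 to -0.51), and here the NIPP1* library was the one apart, as the trained libraries had 508 to 607 RPM. miR-301b and miR-32, both minor members of larger seed families, were at 21.6 and 14.4 RPM and at 57.8 and 40.6 RPM. miR-7a, from an intron of Hnrnpk and a second locus, was at 9856 and 6803 RPM with 5042 to 8497 RPM in the trained libraries. Of the 12 lowest ratios, 7 exceeded every pair within a group, as did 7 of the 12 highest, against 54 (16.8%) of all 322 miRNAs. Both sets were picked by the size of this ratio, which favours such counts.

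**Figure D3:**
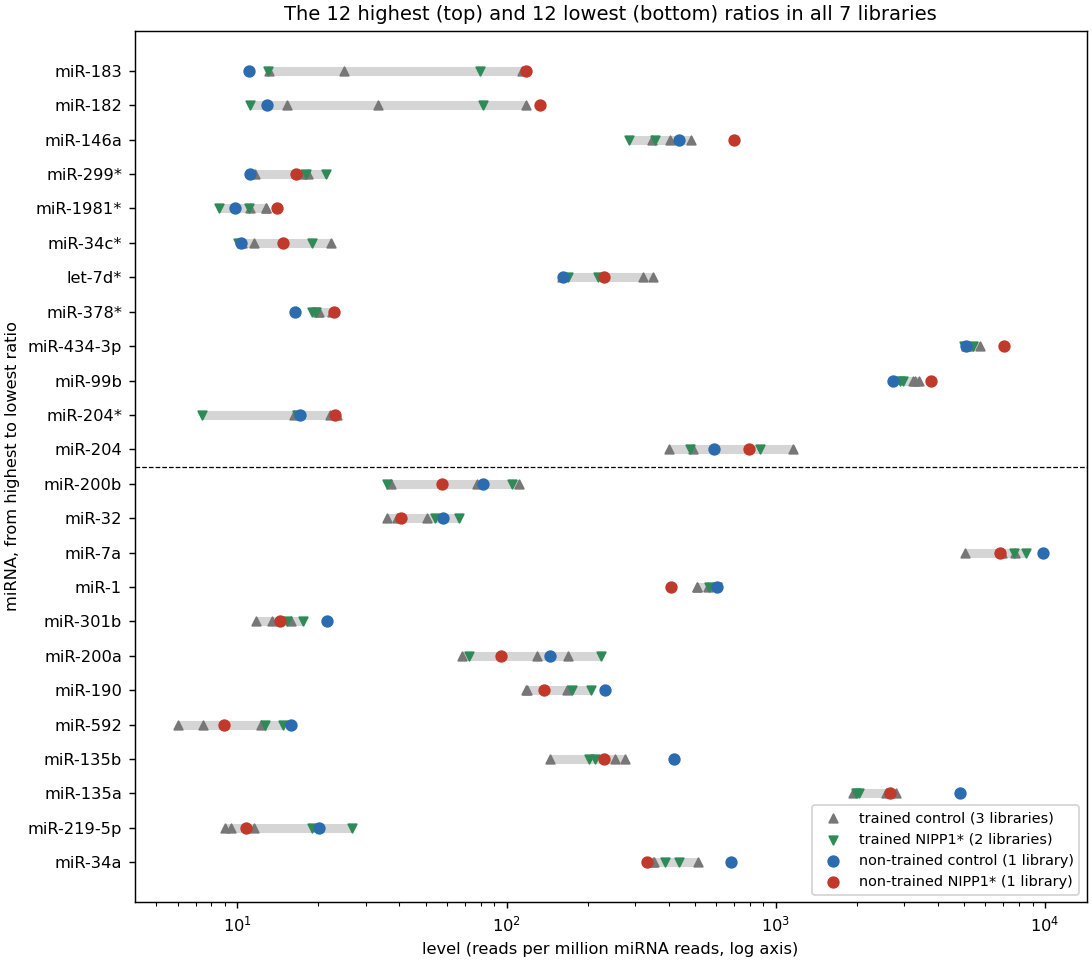
Levels in RPM, on a log axis, of the 12 miRNAs with the highest ratio (above the dashed line) and the 12 with the lowest (below it) in each of the 7 libraries; grey bars span the 5 trained libraries. For miR-146a, miR-434-3p and miR-99b the non-trained NIPP1* library (red) lies above the bar, and for miR-34a, miR-135a, miR-135b and miR-190 the non-trained control (blue) does.

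Among the most abundant miRNAs, miR-125b-5p and miR-128 were higher and miR-9, let-7f and let-7a lower in the NIPP1* library. The 10 most abundant took 62.2% of the reads in the control and 63.6% in the NIPP1* library, and 6.80% of all reads would have to change miRNA to turn one profile into the other. The largest difference in level was that of miR-125b-5p, which modulates synaptic structure, from 81746 to 105918 RPM, 29.6% higher. Its trained range was 83435 to 106850 RPM, so that the control was below all of it. miR-9, a neural progenitor and neuron miRNA and the most abundant of all, went from 149836 to 126635 RPM, a log2 ratio of -0.24, and the control was above the trained range of 107500 to 141300 RPM. miR-128, from introns of R3hdm1 and Arpp21, was at 53963 and 65651 RPM, a log2 ratio of 0.28. miR-29a, miR-26a, let-7c, miR-29c and miR-9* had ratios between -0.08 and 0.13, and let-7f and let-7a had ratios of -0.30 and -0.21. For let-7f and let-7a the NIPP1* library, at 34123 and 35055 RPM, was below all trained libraries, and for miR-29a, at 120758 RPM, above them. For let-7c both the control and the NIPP1* library, at 44770 and 47652 RPM, were below the trained minimum of 50430 RPM. The ratios of miR-9, let-7f and let-7a came close to 0 once the median ratio of strands with a like share of G and C was subtracted, a step described next, which left 0.00, -0.05 and 0.04, and miR-29c went from -0.08 to 0.17.

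Base composition of the mature strand went with the ratio. The 60 miRNAs with under 40% G and C had a median ratio of -0.24, against 0.00 for the 114 with 40% to under 50%, 0.06 for the 96 with 50% to under 60% and 0.08 for the 52 with 60% or more. Across the 322 miRNAs of these 2 libraries, Spearman's rho was 0.42 and Pearson's r 0.27. Of the 12 lowest ratios, 9 belonged to strands with under 40% G and C, and none of the 12 highest did. The median was 34.8% G and C for the former, 49% for the latter and 47.8% for all.

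The tilt was also present between libraries of 1 group. Between libraries 4 and 3, both trained controls, the median ratio went from -0.24 in the class under 40% to 0.33 in the class of 60% or more, with a rho of 0.53. Between libraries 5 and 3 it went from -0.34 to 0.25, with a rho of 0.45. It was not seen between libraries 5 and 4 and between libraries 7 and 6, where rho was -0.06 and 0.03. Both tilted pairs hold library 3. The points of each correlation share their 2 libraries and depths, and the part of base composition in single ratios was not tested. After the median of its class was subtracted from each ratio, a step chosen after the data were seen, miR-183, miR-182 and miR-34a were still the ones past 1 in size, at 3.42, 3.36 and -1.10. miR-135a and miR-135b then stood at -0.62, miR-219-5p at -0.65, miR-592 at -0.59 and miR-190 at -0.50, while miR-7a, miR-1, miR-32 and miR-200b came to between -0.26 and -0.33.

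**Figure D4:**
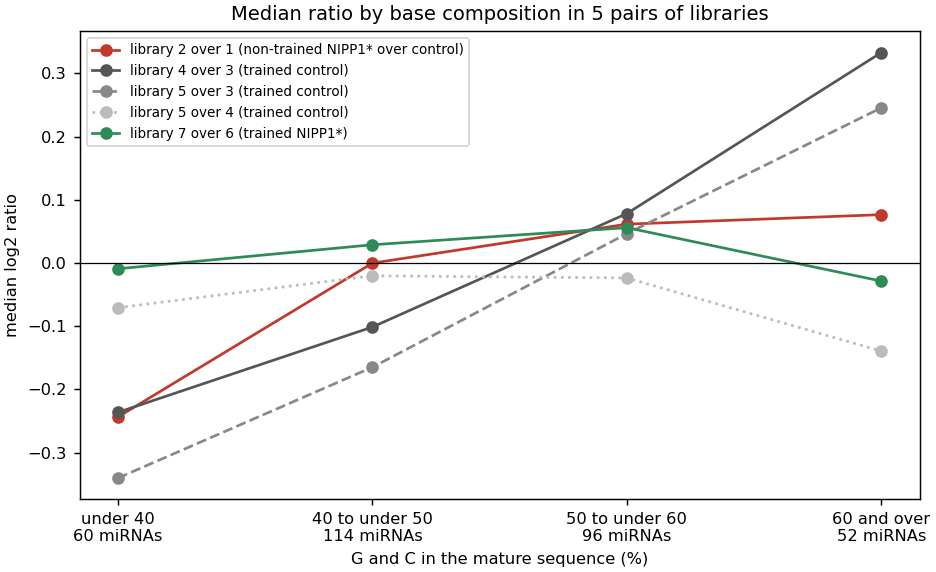
Median log2 ratio of miRNAs in 4 classes of base composition, with the number of miRNAs in each class, for the non-trained NIPP1* over control pair (red) and for 4 pairs of trained libraries of 1 group. The red line starts at -0.24 in the class under 40%, beside the line of libraries 4 and 3, while libraries 5 over 4 and 7 over 6 have no such slope.

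The let-7 family, which promotes differentiation, split in the same order although its members share the seed shown above. let-7f, miR-98, let-7a and let-7g, with 31.8% to 36.4% G and C, had ratios of -0.30, -0.28, -0.21 and -0.34. let-7c, let-7d, let-7e and let-7i, with 40.9%, had ratios of 0.09, -0.07, 0.04 and 0.00, and let-7b, with 45.5%, had 0.22. In the miR-29 family, miR-29b and miR-29c had 34.8% and 36.4% G and C and ratios of -0.17 and -0.08, whereas miR-29a had 40.9% and 0.09. In the miR-26 family, miR-26b had 33.3% and -0.27 and miR-26a 40.9% and 0.13. miR-9* had only 31.8% and a ratio of 0.05, which became 0.30 after subtraction of the class median.

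Neuronal miRNAs differed little as a group. Counts by direction in this and the other lists stand beside 171 of all 322 miRNAs higher (53.1%). That share was 62.7% with totals that leave out the 10 most abundant miRNAs. Of 21 neuron-enriched strands, 15 were higher and 6 lower in the NIPP1* library, with a median of 0.09 and a range from -0.35 to 0.36, and their levels summed to 260590 and 247549 RPM, against 227833 to 259066 RPM in the trained libraries. miR-124, the neuron-specific miRNA, was at 4085 and 4054 RPM, miR-138 at 6576 and 6597 RPM, and miR-137 and miR-218 had ratios of -0.26 and -0.24. Of 9 activity-regulated strands, 6 were higher and 3 lower, with a median of 0.16. Their sum was 7599 RPM in the control, below the trained range of 8389.87 to 9133 RPM, and 8485 RPM in the NIPP1* library, inside it. They include both arms of the CREB-driven miR-132 and miR-212, with ratios of 0.15 to 0.33, and miR-134, a brake on dendritic spine growth, with -0.13. These groups stayed within 0.5 throughout.

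Markers of other cells moved in both directions. All 4 oligodendrocyte strands were lower, with a median of -0.29, and summed to 5458 and 4397 RPM, against 3263 to 5060 RPM in the trained libraries. Of 5 microglial and leukocyte strands, 4 were higher, with a median of 0.37. miR-150, miR-223 and miR-142-5p had ratios of 0.37, 0.31 and 0.38, and miR-142-3p stood at 499 and 495 RPM. These 5 strands summed to 1289 and 1645 RPM and reached at most 1370.25 RPM in a trained library. Without miR-146a the other 4 summed to 851 and 947 RPM, and the NIPP1* library was then inside the trained range of 865 to 991 RPM. Of 6 blood vessel strands, 4 were higher, with a median of 0.04. Their sums of 14891 and 14864 RPM were both below the trained range of 15553 to 18540 RPM.

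Of the red blood cell miRNAs, miR-451 passed the filter, at 107 and 81.3 RPM, a log2 ratio of -0.39, which was -0.15 after subtraction of the median of its base composition class. With a minimum of 10 reads the median of the red blood cell list was -0.72. miR-144, from the same transcript as miR-451, had 83 and 30 reads, a log2 ratio of -1.33 (-1.98 to -0.71). Its opposite arm had 94 and 41 reads, at -1.06. miR-486*, with 44 and 41 reads, and miR-486, with 6 and 5, had ratios of 0.04 and -0.12. In the trained libraries miR-451 ranged from 57.2 to 229 RPM. The 6 strands of choroid plexus and of the Htr2c gene, a serotonin receptor, had a median of 0.19 and summed to 1493 and 1793 RPM, against 621 to 2870 RPM in the trained libraries. Neuroendocrine strands were split between miR-7a and miR-7b, at -0.53 and -0.47, and miR-375, at 62.6 and 69.9 RPM, and their median of -0.15 was -0.02 with a minimum of 10 reads and -0.06 after subtraction of class medians. The 2 strands of the hindbrain list past the filter summed to 36.9 and 40.6 RPM, and the source of these reads was not tested. Of 6 strands of muscle, liver and gut, 5 were lower, with a median of -0.17, which was -0.35 with a minimum of 10 reads.

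**Figure D5:**
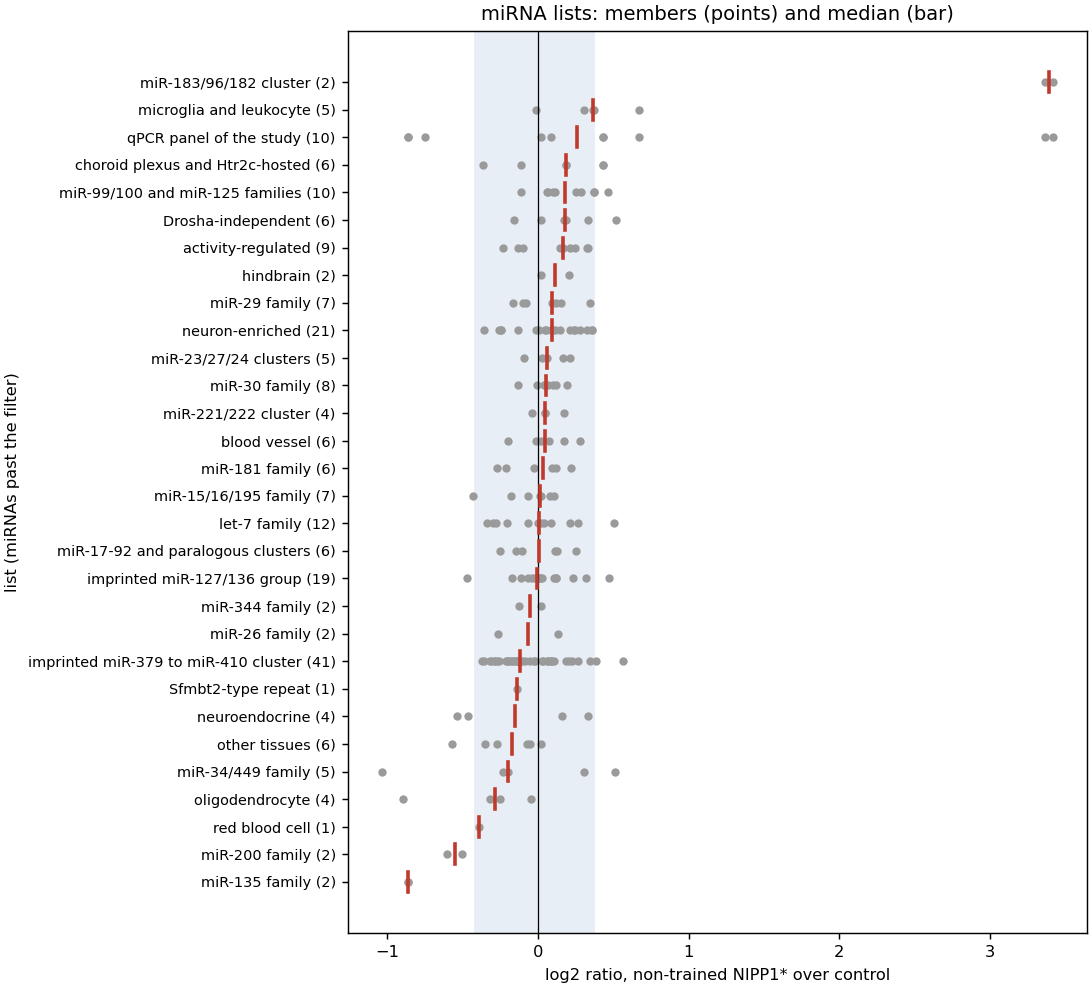
Log2 ratios of the members (grey points) of 30 miRNA lists, which take both arms of a hairpin, and their median (red bar), with the number of members past the filter in brackets; the shaded band spans the 5th to the 95th percentile of all 322 miRNAs, from -0.42 to 0.38. The medians of the miR-183/96/182 cluster, the miR-200 family and the miR-135 family lie outside the band. Each of these lists has only 2 members past the filter, and the band describes single miRNAs rather than medians.

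Of the 11 miRNAs of the quantitative PCR panel, 9 passed the filter. 6 of these were higher and 3 lower, with a median of 0.09. With both arms of each hairpin, as plotted by list, miR-204 joins miR-204*, and 7 of 10 strands were higher, with a median of 0.26, or 0.41 with a minimum of 10 reads. The panel holds miRNAs taken up after these libraries were sequenced, beside miR-10b, which served as a control, and is therefore no independent evidence of direction. Apart from those described above, let-7c had a ratio of 0.09 and miR-10b of 0.02.

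Of 41 strands from the imprinted miR-379 to miR-410 cluster on chromosome 12, 26 were lower and 15 higher, with a median of -0.12. It was -0.03 after subtraction of the class medians and -0.07 with totals that leave out the 10 most abundant miRNAs. The neighbouring group of miR-127 and miR-136 had 9 higher and 10 lower and a median of -0.01, from -0.47 for miR-136 to 0.47 for miR-434-3p. The miR-99/100 and miR-125 families had 9 of 10 strands higher, with a median of 0.18, or 0.12 after that subtraction. Their sum was 108455 RPM in the control, below the trained range of 109940 to 136297 RPM, and 136384 RPM in the NIPP1* library, just above it. All 5 strands of the miR-99b, let-7e and miR-125a cluster on chromosome 17 were higher, from 0.04 for let-7e to 0.47 for miR-99b. The 6 Drosha-independent strands, which reach Dicer by another route, had 5 higher and a median of 0.18, or 0.11 after it. In the family of miR-34 and miR-449, 3 of 5 strands were lower and the median was -0.20, which became 0.01 after subtraction of the class medians.

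Among the other lists, the median was 0.09 for 7 miR-29 strands, 0.06 for 8 miR-30 strands, 0.06 for 5 strands of the miR-23/27/24 clusters, 0.05 for 4 of miR-221 and miR-222, 0.03 for 6 miR-181 strands, 0.02 for 7 of the family of miR-15, miR-16 and miR-195 and 0.01 for 12 of the let-7 family. It was 0.00 for 6 strands of the miR-17-92 type, -0.05 for 2 of the miR-344 family and -0.07 for 2 of miR-26. The Sfmbt2-type repeat miRNAs had 1 strand past the filter, at -0.14, and a median of -0.36 with a minimum of 10 reads, and the hindbrain list 2, with a median of 0.12. Of the lists whose members are described above, the 2 strands of the miR-200 family and of the miR-135 family had medians of -0.55 and -0.86, and the 2 of the miR-183/96/182 cluster 3.39. The sign changed with the median of ratios scaling for the lists of let-7, of miR-17-92 and of miR-15, miR-16 and miR-195. It changed with totals that leave out the 10 most abundant miRNAs for the lists of miR-127 and miR-136 and of miR-344. After subtraction of class medians it changed for those of miR-26, of miR-15, miR-16 and miR-195 and, as given above, of miR-34 and miR-449. With a minimum of 10 reads the median turned to -0.03 for miR-181 and to -0.02 for miR-15, miR-16 and miR-195.

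The arms of a hairpin are cut from the same precursor and often had different ratios, although a strand with several loci, such as miR-7a or miR-9, sums more than 1 hairpin. Across 89 pairs of arms that both had a mean of at least 100 reads, 52 had the same sign (58.4%), with a Pearson's r of 0.19 and a Spearman's rho of 0.20. The difference reached 0.5 in 9 pairs. miR-7a, from 2 loci, had a ratio of -0.53 and its opposite arms miR-7a-1* and miR-7a-2* 0.33 and -0.02, while miR-34c, from 1 locus, had -0.20 and miR-34c* 0.51. let-7d had -0.07 and let-7d* 0.50, and miR-434-3p had 0.47 and miR-434-5p -0.02. The difference of the miR-434 arms, 0.49, was short of 0.5. miR-7a-2*, with a mean of 73 reads, is not among the 89 pairs. Most opposite arms of the miRNAs with the lowest ratios were too scarce to compare. miR-34a* had 4 and 0 reads, and miR-135a-2* had 73 and 48 reads, a log2 ratio of -0.47 (-1.02 to 0.08).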

How the data were processed

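Small RNA libraries of pooled hippocampal tissue were prepared by the authors with the TruSeq Small RNA Kit, and inserts of 19 to 26 nt were mapped to mm9 with Bowtie within ncPRO-seq. The submitters' processing notes also name CASAVA 1.7.0 and bedtools. For every mature locus, the authors deposited its share of the library as a percent of miRNA reads, and all copies of a miRNA carry the full value. They also deposited tables of group comparisons, whose columns for the single non-trained libraries hold a signal, reads divided by a size factor. Fold changes, p-values and adjusted p-values in these tables were not used, nor were 2 further columns of single libraries.

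Since low values are multiples of what 1 read is worth, both columns could be turned back into reads. In the per-locus percentages, all low values (100%) came out whole within 0.1 read. The ratios rest on the reads from the columns of the non-trained libraries. The trained libraries rest on the percentages. Of the 706 names, 693 were joined to a mature sequence of a locus, 684 by name and reads and 9 by reads alone, and 274 of the 322 compared had exactly a RefSeq (GRCm38.p6) mature sequence. Ratios are log2 ratios of RPM with a conditional Clopper-Pearson 95% interval, checked on simulated reads. With 1 library per side no test was run.

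Named were the miRNAs past 1 log2 unit, the 12 highest and 12 lowest ratios, the 10 most abundant, the quantitative PCR panel, opposite arms, and up to 4 members by level from each of 30 lists. Other members given as examples, among them those set beside their base composition, were chosen after their values were seen. Members and lists were chosen with earlier results of these data known. Other scalings, read minimums, a pseudocount of 0.5 RPM and loci taken singly were tried. Analyses were run with pandas 2.3.3, scipy 1.17.1 and numpy 2.4.6 under Python 3.11.15.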

Additional observations from a re-analysis of the deposited data

How the results depend on the processing

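The count of 3 miRNAs past 1 log2 unit was 3 with TMM factors, median of ratios size factors, reads from the per-locus percentages, log2(RPM + 0.5), each locus on its own, a minimum of 300 reads and the median of the base composition class subtracted, the last chosen after the data were seen. It was 2 with totals that leave out the 10 most abundant miRNAs, where miR-34a stood at -0.98. With a lower minimum more scarce miRNAs entered, and the count was 8 of 418 at a mean of 30 reads, 14 of 482 at 10 reads and 56 of 623 with any read in both libraries, with as many higher as lower in each case. The 3 scalings moved every ratio by between -0.02 and 0.05, and the share above 0 went from 53.1% to between 50% and 62.7%. Subtraction of class medians turned the sign of 3 of 37 miRNAs named by rule, namely miR-9, let-7a and miR-29c. The Pearson correlation between arms was 0.30 over 138 pairs at a minimum of 30 reads, against 0.19. No library could be left out, since each side has 1, and the spread between mice is not measured. At the minimum, miR-1981* and miR-34c* were just included with means of 100 and 105.5 reads and log2 ratios of 0.52 and 0.51. miR-27b* and miR-505-3p were just left out with 97.5 and 95.5 reads and log2 ratios of 0.07 and -0.27. At a log2 ratio of 1, miR-34a was just past it and miR-219-5p, at -0.89, was the nearest short of it. No paired analysis was possible because the groups compared hold 1 library each.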
